A study of Mus musculus with 6 samples.

Results

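Genes of the junctions that hold epithelial cells together were examined in intestinal crypts, the pits of the gut lining that contain its stem and progenitor cells. The set was defined by gene symbol and not by a cutoff on measured values, though earlier results of these data were known. It holds 82 of the 19938 genes tested. It comprised 28 claudins (Cldn), 2 zonula occludens scaffolds (Tjp), 23 cadherins (Cdh), 5 desmogleins (Dsg), 2 desmocollins (Dsc), 4 plakophilins (Pkp) and 12 connexins (Gja, Gjb and Gjc), together with Ocln, Dsp, Jup, F11r, Cgn and Marveld2. By symbol these were sorted into 34 tight junction genes, 23 cadherins, 13 desmosome genes and 12 gap junction genes. The cadherins stand for the adherens junction by symbol only, and not all of them are parts of it. A further 14 coding genes with such symbols were not analysed here.

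Crypts of 3 YAP transgenic and 3 control mice were compared, with 1 Affymetrix array per mouse. By the series title the transgene is YAP-S127A, in which the coactivator YAP lacks a serine that Hippo pathway kinases use to inhibit it, and it is combined with Villin-rtTA, a doxycycline-dependent activator driven by a promoter of the gut epithelium. Mice were given doxycycline for 2 days per the design text. The labels call the other mice "Control" and give neither the transgenes they carried nor whether they received the drug, so an effect of the drug and that of YAP cannot be told apart. The labels state no age, sex or strain, and p-values measure only the spread between these 6 mice. Villin-driven transgenes act in epithelium, so other cells in the crypt preparation were not targeted directly.

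Tight junctions seal the space between neighbouring cells near their apical side: claudins form the barrier and its ion-selective pores, and cytoplasmic scaffolds tie them to actin. Adherens junctions hold cells together through cadherins bound to catenins. Desmosomes join the keratin filaments of adjacent cells through desmogleins, desmocollins and plaque proteins, and gap junctions are channels of connexins between cytoplasms. In the gut these structures keep the lumen apart from the tissue, and the claudins in use differ between crypt and villus.

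In the transgenic crypts 13 of the 82 junction genes rose and 2 fell at a limma adjusted p below 0.05. These are 15.9% and 2.44% of the set, against 7.5% and 6.7% of all genes tested. The genes that rose were the plaque scaffolds Cgn and Tjp1, the transmembrane proteins F11r and Ocln, the claudins Cldn9 and Cldn7, the cadherins Cdh1 and Cdh17, and the desmosome genes Dsg2, Dsp, Pkp4, Dsc2 and Pkp3. Those that fell were the plakophilin Pkp1 and the claudin Cldn15. All 3 transgenic mice lay above all 3 control mice for 25 members (30.5%) and below them for 3 (3.66%), against 16.5% and 17% of all genes. The median log2 change was 0.10 over the set and 0.03 over all genes. The count that rose was 12, 17 or 7 without transgenic mouse 1, 2 or 3, while leaving out control mouse 1, 2 or 3 gave 6, 8 or 5. The count that fell was 1, 3 or 3 without transgenic mouse 1, 2 or 3 and 1 without any single control mouse.

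Signals are deposited log2 values, and each log2 change is transgenic minus control. Median signals of the genes tested were between 6.74 and 6.79 on every array. Over all genes, transgenic mouse 2 stood apart from the other transgenic mice on the second principal component, at -36.1 against 11.7 and 12.5. Array control probe sets, identified by number only, had medians of 5.33, 5.15 and 5.03 on transgenic arrays and 4.99, 4.97 and 4.97 on control arrays. All transgenic arrays were higher in this level, and its part in the differences between the groups was not tested. Their median over the 6 arrays was 5.07, and 24 of the 82 junction genes had a mean at or below it. All 15 changed genes were among the other 58, of which 22.4% rose and 3.45% fell, against 9.02% and 8.13% of all genes above that level. Yap1 had signals of 8.98, 9.27 and 9.25 in transgenic crypts and 9.43, 9.48 and 9.30 in control crypts (limma's adjusted p = 0.184). No source states whether its probe set reads the transgene, and Yap1 is therefore no check of the labels.

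**Figure D1:**
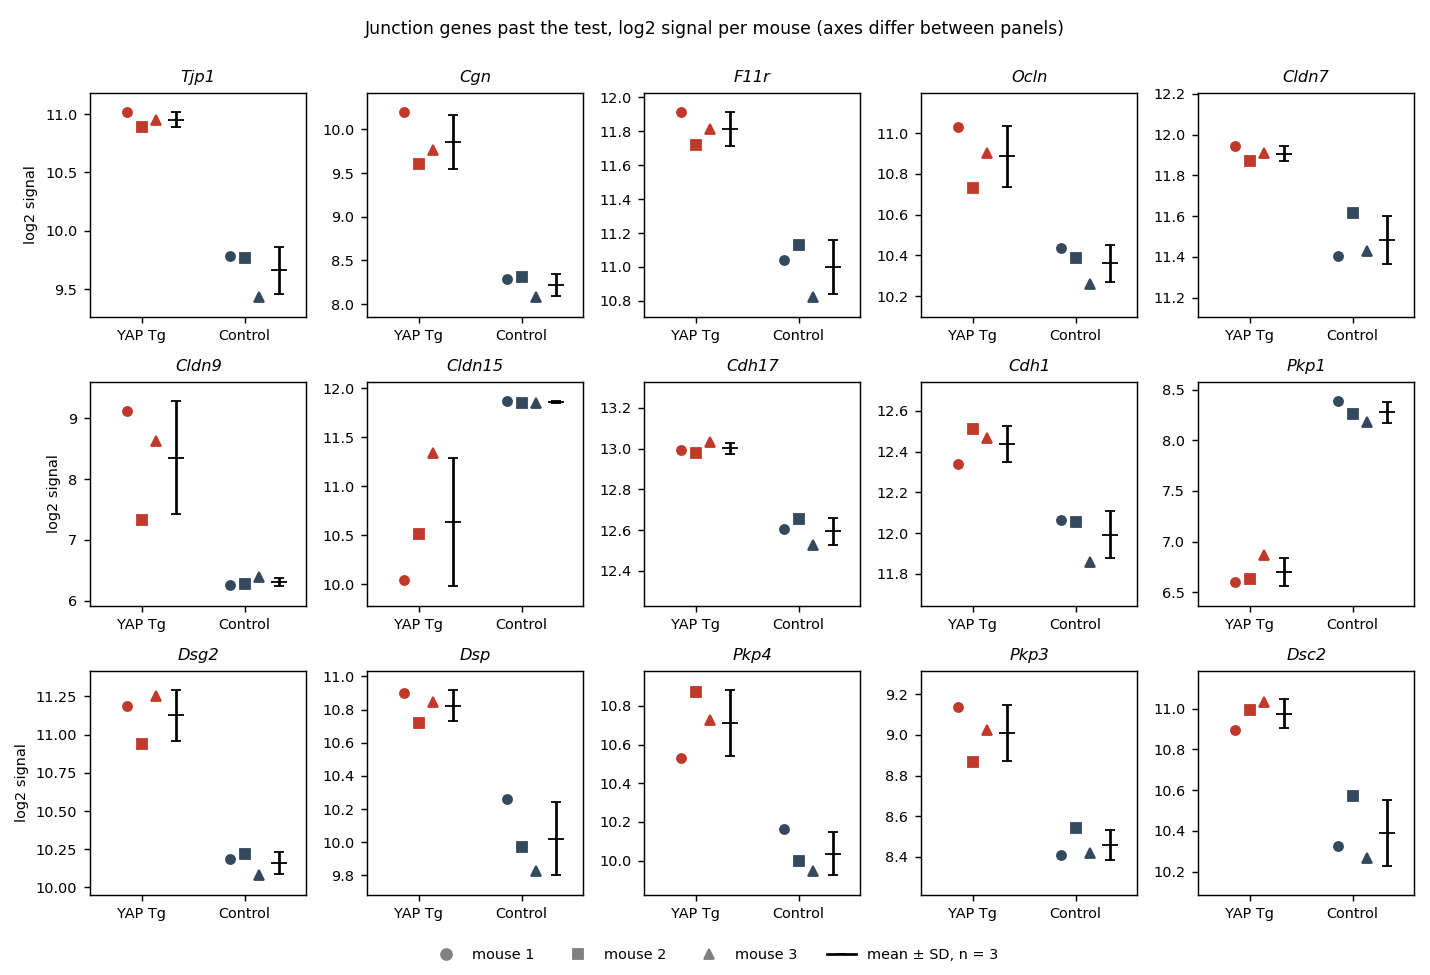
Log2 signal of the 15 junction genes past limma's test, with YAP Tg mice on the left and Control mice on the right of each panel, 1 point per mouse and a mean with SD (n = 3) beside each group. The groups do not overlap in any panel, and the 3 transgenic mice are spread widely for Cldn9 (7.32 to 9.11) and Cldn15 (10.05 to 11.34).

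Promoter windows of the genes that changed are shown because YAP acts through DNA-binding factors of the TEAD family. RefSeq windows on build GRCm38.p6, from 250 bases before to 50 after a transcription start, were matched by symbol for 55 of the 82 members and for 8 of the 15 that changed. They were searched on both strands for the TEAD letters GGAATG and the AP-1 letters TGANTCA, which did not overlap in the windows printed. The TEAD letters occurred in 15.1% of the 73 windows of junction genes and in 14.7% of all 32851 windows. The AP-1 letters occurred in 8.22% of the windows of junction genes and in 7.81% of all. Of the windows of genes that rose, 2 of 10 held the TEAD letters and 1 of 10 the AP-1 letters. The printed windows are those of changed genes that hold either motif, and those of Tjp1 and Cgn, which rose with the smallest p among members with a window and hold neither. Each runs 5′ to 3′ on the gene's strand, and capitals mark the motifs.
Pkp4, chr2:59161619-59161918, plus strand: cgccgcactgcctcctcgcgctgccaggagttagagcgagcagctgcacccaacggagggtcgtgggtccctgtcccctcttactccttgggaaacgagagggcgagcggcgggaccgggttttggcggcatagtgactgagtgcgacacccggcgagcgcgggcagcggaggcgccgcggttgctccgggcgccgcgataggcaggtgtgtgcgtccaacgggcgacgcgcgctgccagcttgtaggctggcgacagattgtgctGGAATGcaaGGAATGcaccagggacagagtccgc
Cldn7, chr11:69964529-69964828, plus strand: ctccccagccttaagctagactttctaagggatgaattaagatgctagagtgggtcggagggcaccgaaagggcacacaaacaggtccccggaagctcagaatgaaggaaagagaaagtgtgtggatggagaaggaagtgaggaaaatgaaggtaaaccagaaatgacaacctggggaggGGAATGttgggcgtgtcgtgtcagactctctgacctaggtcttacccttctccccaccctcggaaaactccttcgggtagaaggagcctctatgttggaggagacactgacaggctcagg
F11r, chr1:171437311-171437610, plus strand: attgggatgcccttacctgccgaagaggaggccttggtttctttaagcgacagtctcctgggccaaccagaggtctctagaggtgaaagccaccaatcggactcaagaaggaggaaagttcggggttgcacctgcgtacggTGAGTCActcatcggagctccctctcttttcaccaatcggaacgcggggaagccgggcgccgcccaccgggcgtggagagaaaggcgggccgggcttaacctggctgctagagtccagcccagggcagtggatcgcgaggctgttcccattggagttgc
Cldn15, chr5:136967619-136967918, plus strand: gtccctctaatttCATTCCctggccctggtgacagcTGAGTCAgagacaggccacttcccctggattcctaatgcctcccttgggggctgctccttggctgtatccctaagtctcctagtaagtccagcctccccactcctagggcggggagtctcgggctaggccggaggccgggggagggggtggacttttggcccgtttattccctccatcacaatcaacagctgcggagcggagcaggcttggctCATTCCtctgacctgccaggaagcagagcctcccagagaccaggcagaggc
Tjp1, chr7:65371195-65371494, minus strand: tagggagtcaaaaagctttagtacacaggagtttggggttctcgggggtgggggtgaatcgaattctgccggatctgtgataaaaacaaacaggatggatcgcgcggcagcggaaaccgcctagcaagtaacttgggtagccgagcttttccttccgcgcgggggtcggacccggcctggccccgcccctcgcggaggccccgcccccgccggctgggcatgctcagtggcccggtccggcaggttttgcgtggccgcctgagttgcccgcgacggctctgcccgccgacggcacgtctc
Cgn, chr3:94786433-94786732, minus strand: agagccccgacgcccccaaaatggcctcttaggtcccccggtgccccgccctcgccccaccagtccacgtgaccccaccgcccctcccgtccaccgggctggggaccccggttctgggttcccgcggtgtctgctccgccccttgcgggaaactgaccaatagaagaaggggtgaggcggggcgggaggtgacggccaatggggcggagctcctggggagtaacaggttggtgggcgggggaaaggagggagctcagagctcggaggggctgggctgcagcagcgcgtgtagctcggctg
The Pkp4 window, at one of the gene's 2 listed starts, holds 2 copies of the TEAD letters, both just after the start. Cldn7 likewise has 2 listed starts, and for both genes the window at the other start holds neither motif. The window of Cldn15, which fell, holds 2 TEAD matches and 1 AP-1 match. A match is a description of these letters and not evidence of a bound site.

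Of 6 measured genes for plaque and transmembrane components of the tight junction other than claudins, 4 rose and none fell, against 7.5% and 6.7% of all genes. Cgn encodes cingulin, a plaque protein that links the junction to the cytoskeleton. It had signals of 10.20, 9.61 and 9.76 in transgenic crypts and 8.28, 8.31 and 8.08 in control crypts. Every transgenic mouse was more than 1 log2 unit above every control mouse, and Cgn rose 3.10-fold (log2 change 1.63, SE 0.16, limma's adjusted p = 0.00255). Tjp1 encodes the scaffold ZO-1, which binds the tails of claudins and occludin. Its signals were 11.02, 10.89 and 10.95 in transgenic crypts and 9.78, 9.77 and 9.43 in control crypts. Transgenic mice were close together for this gene, with an SD of 0.07 against 0.20 in controls, and the change was 2.45-fold (log2 change 1.29, SE 0.11, limma's adjusted p = 0.00176). F11r, the junctional adhesion molecule JAM-A, stood at 11.91, 11.72 and 11.81 in transgenic crypts and at 11.04, 11.13 and 10.82 in control crypts. It rose 1.76-fold (log2 change 0.82, SE 0.10, limma's adjusted p = 0.00566), without overlap between groups.

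Ocln, which encodes occludin, had signals of 11.03, 10.73 and 10.90 in transgenic crypts and 10.43, 10.39 and 10.26 in control crypts. It rose 1.44-fold (log2 change 0.53, SE 0.10, limma's adjusted p = 0.0206). Tjp3, the scaffold ZO-3, stood at 10.14, 10.16 and 10.21 in transgenic crypts and at 9.94, 10.07 and 9.94 in control crypts. The groups did not overlap, yet the difference of 0.19 did not pass the test (95% interval 0.01 to 0.36, limma's adjusted p = 0.144). Marveld2, or tricellulin, which seals the points where 3 cells meet, ran from 8.05 to 8.44 in transgenic crypts and from 8.19 to 8.54 in control crypts. Its groups overlapped, with a difference of -0.13 (95% interval -0.46 to 0.19, limma's adjusted p = 0.549). The call of Ocln was lost without transgenic mouse 3 (adjusted p = 0.0680) or without control mouse 1, 2 or 3 (0.0720, 0.0819 and 0.0891), while those of Cgn, Tjp1 and F11r held in every alternative that refitted the data.

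Of 28 claudins, 2 rose (7.14%), 1 fell (3.57%) and 25 did not pass the test, against 7.5% higher and 6.7% lower over all genes, so the share that rose was near that of the whole array. Cldn9 had signals of 9.11, 7.32 and 8.62 in transgenic crypts and 6.26, 6.27 and 6.39 in control crypts. Each transgenic value was above each control value, with transgenic mouse 2 the lowest of the 3, and the change was 4.12-fold (log2 change 2.04, SE 0.43, limma's adjusted p = 0.0283). Cldn7, a claudin of the lateral membrane needed for an intact gut lining in mice, stood at 11.94, 11.87 and 11.91 in transgenic crypts and 11.40, 11.62 and 11.43 in control crypts. It rose 1.34-fold (log2 change 0.42, SE 0.08, limma's adjusted p = 0.0217). Cldn15 forms pores for sodium in the small intestine. Its signals were 10.05, 10.52 and 11.34 in transgenic crypts and 11.87, 11.86 and 11.86 in control crypts. Controls were nearly identical while the transgenic mice spanned more than 1 log2 unit, and the gene fell to 0.427 of the control level (log2 change -1.23, SE 0.31, limma's adjusted p = 0.0475). These 3 calls were lost in several fits with 1 array left out. With transgenic mouse 1 or 3 left out, adjusted p was 0.0572 and 0.109 for Cldn9 and 0.0584 and 0.0621 for Cldn7, and without transgenic mouse 1 or 2 it was 0.0817 and 0.0612 for Cldn15. With control mouse 1, 2 or 3 left out it was 0.116, 0.113 and 0.109 for Cldn9 and 0.161, 0.156 and 0.155 for Cldn15. The log2 changes hardly moved in these fits, at 2.02, 2.03 and 2.08 for Cldn9 and -1.22, -1.23 and -1.23 for Cldn15. Over the whole array, genes called higher numbered 674, 737 and 669 in the same fits, against 1495 with all arrays. For Cldn7 the adjusted p was 0.0992 and 0.0931 without control mouse 1 or 3.

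Cldn4, a claudin that tightens the barrier, had signals of 12.40, 10.60 and 11.62 in transgenic crypts and 8.77, 10.29 and 9.58 in control crypts. Both groups were widely spread without overlapping, and the difference of 1.99 did not pass the test (95% interval 0.66 to 3.32, limma's adjusted p = 0.0633). Without transgenic mouse 2, its lowest transgenic value, the difference was 2.46 (limma's adjusted p = 0.0148), and it passed at 0.0473 when dim genes were left out. Its neighbour Cldn3 is likewise a sealing claudin of gut epithelium. It ran from 11.22 to 11.40 in transgenic crypts and from 11.28 to 11.35 in control crypts, with a 95% interval of -0.18 to 0.18 for the difference. Cldn8, a claudin of the distal bowel, stood at 5.94, 6.56 and 6.67 in transgenic crypts and at 5.60, 5.53 and 5.81 in control crypts. Its difference of 0.74 missed the threshold (limma's adjusted p = 0.0632), and passed it without transgenic mouse 1 (0.97, adjusted p = 0.00957). Cldn22 differed by 0.34 (limma's adjusted p = 0.0673). Of the 28 claudins, 10 had a mean at or below the level of the array control probe sets, among them Cldn1 and the 5 measured members of the Cldn34 group.

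**Figure D2:**
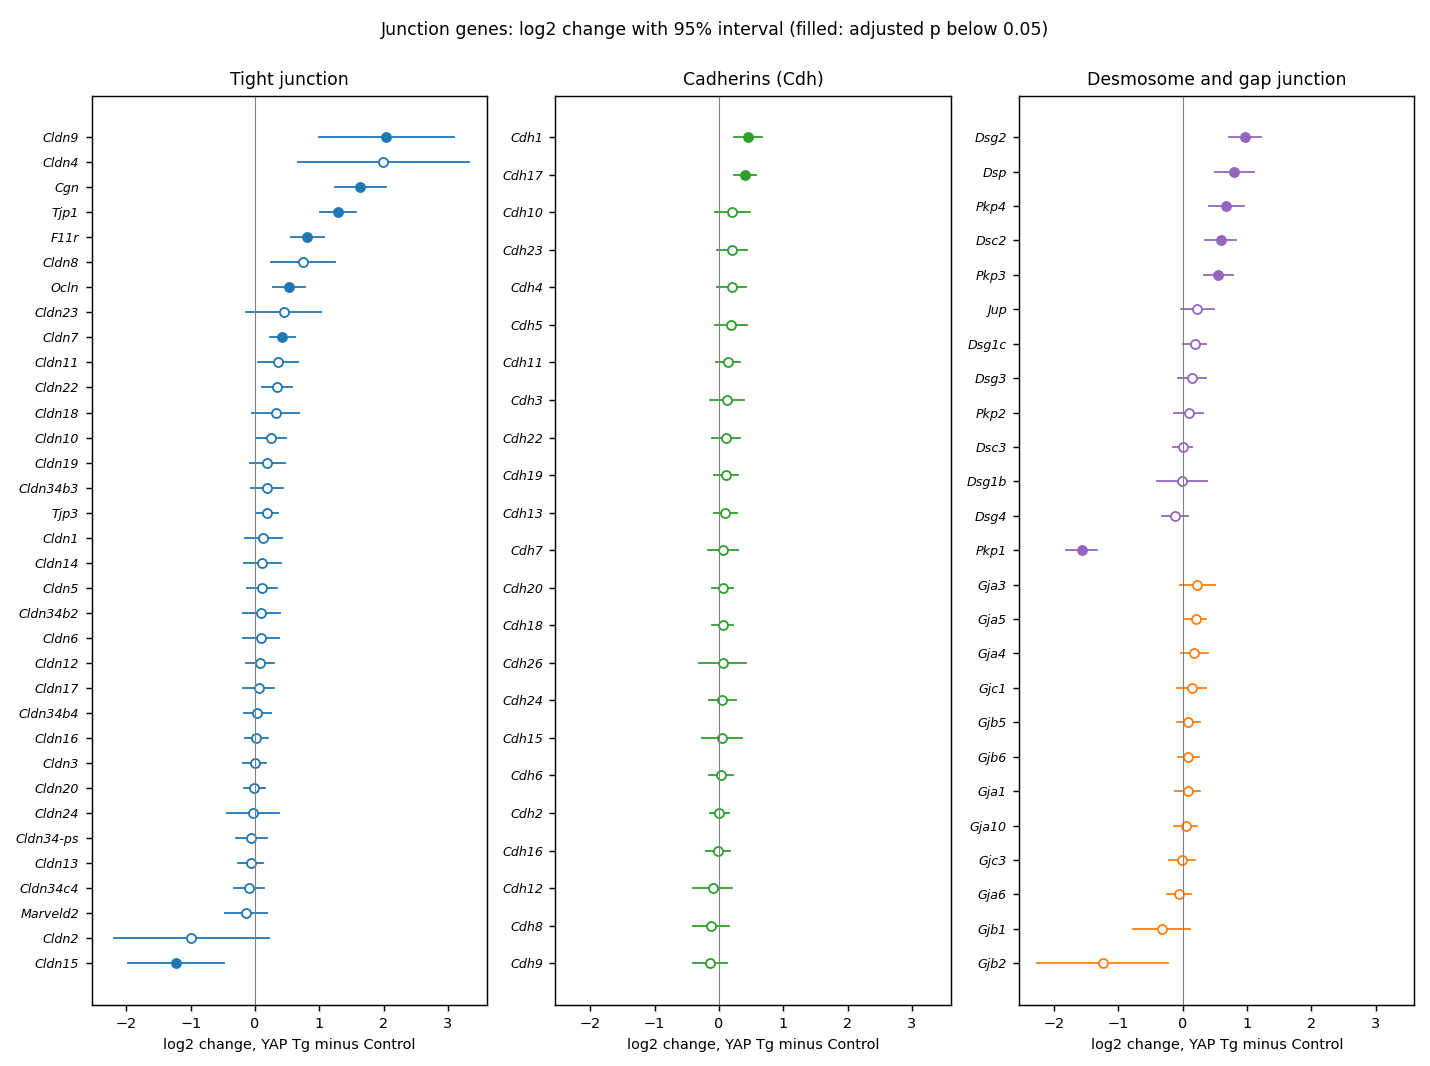
Log2 change (YAP Tg minus Control, horizontal axis) of all 82 junction genes with its 95% interval from limma's fit, in panels for tight junction genes, cadherins, and desmosome (purple) with gap junction genes (orange). Filled points passed an adjusted p below 0.05: 6 tight junction genes, 2 cadherins and 5 desmosome genes lie to the right of 0, and Cldn15 and Pkp1 to the left.

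Of 23 cadherins 2 rose (8.7%), E-cadherin and LI-cadherin, both known from gut epithelium, and none fell. The share that rose was near the 7.5% of all genes. Cdh1, which encodes E-cadherin, the core of the epithelial adherens junction, had signals of 12.34, 12.51 and 12.47 in transgenic crypts and 12.06, 12.05 and 11.86 in control crypts. It rose 1.36-fold (log2 change 0.45, SE 0.09, limma's adjusted p = 0.0245). Cdh17, LI-cadherin, stood at 12.995, 12.977 and 13.032 in transgenic crypts and 12.60, 12.66 and 12.53 in control crypts. The change was 1.33-fold (log2 change 0.41, SE 0.07, limma's adjusted p = 0.0139), and neither gene's groups overlapped. The other 21 cadherins differed by -0.14 to 0.21, with adjusted p of 0.204 or more. They include Cdh5, of blood vessel endothelium, at 5.84 to 6.08 in transgenic crypts and 5.62 to 5.83 in control crypts, and Cdh2, N-cadherin, whose mean lay below the array control level. The smallest p among them belonged to Cdh23 (difference 0.20, limma's adjusted p = 0.204) and Cdh4 (0.20, adjusted p = 0.206), and Cdh23 overlaps Vsir, a gene with a log2 change of 1.01. The call of Cdh1 was lost without transgenic mouse 3 (adjusted p = 0.0752) or control mouse 1, 2 or 3 (0.0772, 0.0786 and 0.0831), and that of Cdh17 without control mouse 1 or 3 (0.0684 and 0.0604).

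Desmosome genes held 6 of the 15 changes: of 13, 5 rose (38.5%) and 1 fell (7.69%), against 7.5% and 6.7% of all genes. The share that fell was near that of the whole array. Dsg2 and Dsc2 encode the desmosomal cadherins of simple epithelia. Dsg2 had signals of 11.19, 10.94 and 11.25 in transgenic crypts and 10.19, 10.22 and 10.08 in control crypts. It rose 1.95-fold (log2 change 0.96, SE 0.10, limma's adjusted p = 0.00305), with a gap between groups larger than the range within either. Dsc2 stood at 10.898, 10.995 and 11.036 in transgenic crypts and 10.33, 10.57 and 10.27 in control crypts, and rose 1.5-fold (log2 change 0.59, SE 0.10, limma's adjusted p = 0.0148). Dsp encodes desmoplakin, which anchors keratin filaments to the plaque. Its signals were 10.90, 10.72 and 10.85 in transgenic crypts and 10.26, 9.97 and 9.83 in control crypts, a 1.74-fold rise (log2 change 0.80, SE 0.13, limma's adjusted p = 0.0107). Controls were more spread than transgenic mice for Dsp, with control mouse 1 the nearest to the transgenic values. Jup, plakoglobin, which serves both desmosomes and adherens junctions, ran from 11.82 to 12.04 in transgenic crypts and from 11.56 to 11.85 in control crypts. Its groups overlapped, with a difference of 0.23 (95% interval -0.02 to 0.48, limma's adjusted p = 0.201).

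The plakophilins, armadillo proteins that tie desmosomal cadherins to desmoplakin, went different ways. Pkp1, known mainly from the upper layers of stratified epithelia, had signals of 6.60, 6.64 and 6.86 in transgenic crypts and 8.39, 8.26 and 8.18 in control crypts. All transgenic mice were more than 1 log2 unit below all controls, and Pkp1 fell to 0.336 of the control level (log2 change -1.57, SE 0.10, limma's adjusted p = 0.00082), the smallest p of the 82 junction genes. Pkp3 stood at 9.14, 8.86 and 9.02 in transgenic crypts and 8.41, 8.54 and 8.42 in control crypts, and rose 1.46-fold (log2 change 0.55, SE 0.09, limma's adjusted p = 0.0142). Pkp4, a relative also found at adherens junctions, stood at 10.53, 10.87 and 10.73 in transgenic crypts and 10.161, 9.9998 and 9.946 in control crypts, and rose 1.6-fold (log2 change 0.67, SE 0.11, limma's adjusted p = 0.0131). Pkp2 ran from 9.38 to 9.64 in transgenic crypts and from 9.40 to 9.49 in control crypts, with a 95% interval of -0.13 to 0.31 for the difference. Dsg1c, Dsg3, Dsg4 and Dsc3, genes of stratified epithelia, had means at or below the array control level, and Dsg1c (0.18, adjusted p = 0.154) and Dsg3 (0.14, adjusted p = 0.354) had the smallest p among the desmosome genes outside those listed as known in gut epithelium and those past the test. Dsg1b and Dsg1c are close copies that an array may not separate.

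Calls of Pkp1 and Dsg2 held in every alternative that refitted the data, and that of Dsp was lost without control mouse 2 (adjusted p = 0.0597). Pkp4 was not called without transgenic mouse 3 (0.0507) or control mouse 2 or 3 (0.0682 and 0.0671), Pkp3 without control mouse 1 or 3 (0.0749 and 0.0704), and Dsc2 without transgenic mouse 3 (0.0548) or control mouse 1 or 3 (0.0772 and 0.0662).

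No connexin passed the test, against 7.5% of all genes higher and 6.7% lower. Of 12 gap junction genes, limma called 0 at an adjusted p below 0.05, and 2 had an unadjusted p below 0.05, Gjb2 and Gja5; with array weights 2 were called higher and 1 lower. Gjb2 encodes a connexin of gut and other epithelia, and stood at 7.03, 8.70 and 7.30 in transgenic crypts against 8.990, 8.998 and 8.773 in control crypts. Transgenic mice 1 and 3 were more than 1 log2 unit below every control, while mouse 2 lay just below control mouse 3. The difference with all mice was -1.24 (95% interval -2.26 to -0.22, limma's adjusted p = 0.110), and without transgenic mouse 2 it was -1.75 (SE 0.12, limma's adjusted p = 0.00129). Gjb1 stood at 7.35, 7.47 and 8.05 in transgenic crypts and at 8.02, 7.89 and 7.94 in control crypts. Here transgenic mouse 3 was the one at the control level, the difference was -0.33 (limma's adjusted p = 0.282), and without mouse 3 it was -0.54 (adjusted p = 0.0222). Gja1, which encodes the most widespread connexin, had a mean of 5.07 ± 0.06 in transgenic crypts and 4.99 ± 0.09 in control crypts (SD, n = 3 each), at the array control level. Gja5 differed by 0.20 (limma's adjusted p = 0.111) and Gja3 by 0.23 (adjusted p = 0.224).

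Among the junction genes, the transgenic mice differed among themselves most in claudins and Gjb2. The SD was larger in transgenic than in control mice for 53 of the 82 junction genes, a smaller share than the 14966 of all 19938 genes. The median SD of junction genes was 0.110 in transgenic and 0.0903 in control mice. Over all genes it was 0.159 and 0.0823, so a wider spread in transgenic mice was not particular to junction genes. Among junction genes the SD in transgenic mice exceeded 0.5 for Cldn2 (1.07), Cldn9 (0.924), Cldn4 (0.902), Gjb2 (0.893) and Cldn15 (0.653). Cldn2 forms pores for cations and water and is known as a claudin of crypt cells. It had signals of 7.46, 9.54 and 8.08 in transgenic crypts and 9.43, 9.25 and 9.37 in control crypts. Transgenic mouse 2 was above every control, and mice 1 and 3 were more than 1 log2 unit below, as for Gjb2. With all mice the difference in Cldn2 was -0.99 (95% interval -2.20 to 0.22, limma's adjusted p = 0.240), and without transgenic mouse 2 it was -1.58 (SE 0.19, adjusted p = 0.00357). Cldn23 had 8.60, 7.73 and 7.86 in transgenic crypts and 7.69, 7.76 and 7.40 in control crypts, with transgenic mice 1 and 3 above all controls and mouse 2 among them. In contrast the SD in transgenic mice was 0.03 for Cdh17, 0.04 for Cldn7 and 0.07 for Tjp1 and Dsc2.

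**Figure D3:**
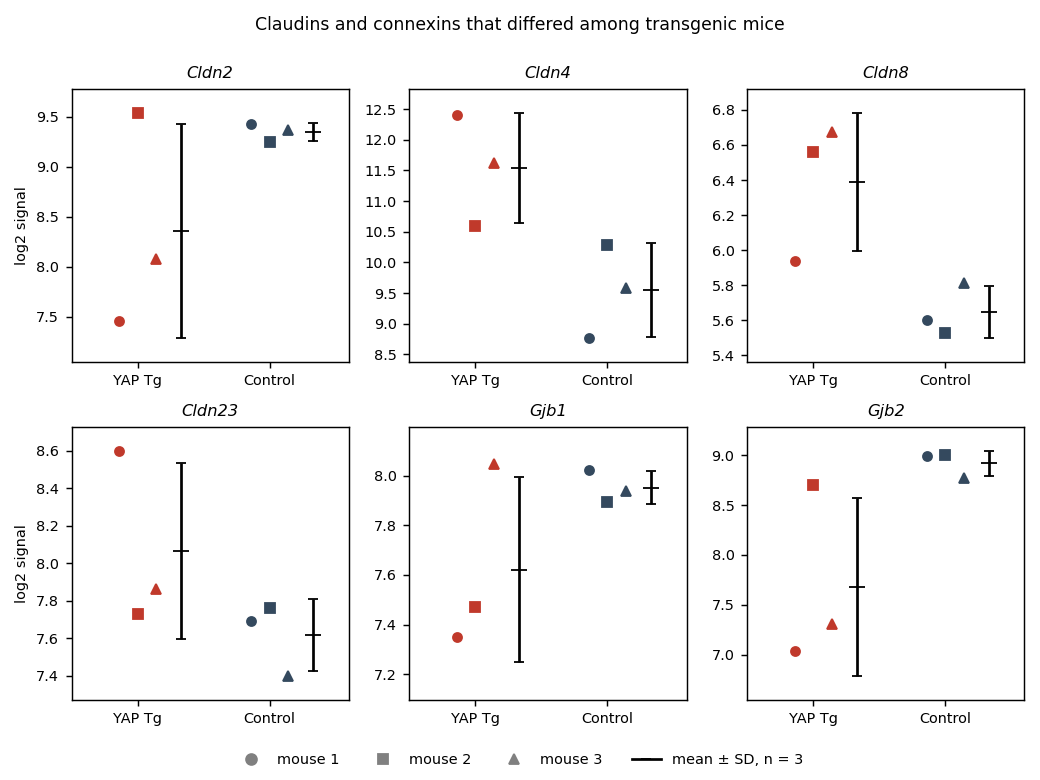
Log2 signal of 4 claudins and 2 connexins in YAP Tg mice (left) and Control mice (right) of each panel, with 1 point per mouse, shaped by mouse number, and the mean with SD (n = 3). For Cldn2 and Gjb2 transgenic mouse 2 lies at 9.54 and 8.70, near the controls, and mice 1 and 3 lie lower.

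Several changed genes lie next to other members in the GRCm38.p6 gene order. On chromosome 17 Cldn9 rose, and its neighbour Cldn6 ran from 6.10 to 6.30 in transgenic crypts and from 5.91 to 6.26 in control crypts (difference 0.09, limma's adjusted p = 0.622). On chromosome 13 Ocln rose beside Marveld2, which did not pass the test. On chromosome 8 Cdh1 rose beside Cdh3, P-cadherin, which differed by 0.13 (limma's adjusted p = 0.489). On chromosome 18 Dsg2 and Dsc2 rose at a locus whose other measured desmogleins and desmocollin differed by -0.12 to 0.18 and did not pass the test. On chromosome 14 Gjb2 lies between Gja3 and Gjb6, which differed by 0.23 and 0.09 (adjusted p = 0.224 and 0.424). Whether neighbours differed from each other was not tested.

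Partners of these genes were taken as lists by function. Of 22 measured tight junction partners, 10 rose and none fell (median log2 change 0.37), and of 13 adherens junction partners 6 rose and 1 fell (0.39). Over all genes 7.5% rose and 6.7% fell, with a median of 0.03. The share of adherens junction partners that fell (7.69%) was near that of the whole array. Ildr1, angulin-2, which recruits tricellulin to 3-cell contacts, had signals of 10.42, 9.98 and 9.64 in transgenic crypts and 7.26, 7.45 and 6.99 in control crypts, and rose by 2.78 on the log2 scale (SE 0.22, limma's adjusted p = 0.0012). That is more than 2 log2 units between the nearest mice, while tricellulin itself did not pass the test. The Par complex, which sets apical polarity, was represented by Pard6b (1.64, adjusted p = 0.00101) and the atypical kinase Prkci (0.75, adjusted p = 0.00337). The related kinase Prkcz also rose (0.70, limma's adjusted p = 0.0208). The remaining genes of this complex in the list did not pass the test: Pard3 differed by -0.20 (adjusted p = 0.138), Pard6a by 0.05 and Pard6g by 0.01. Amotl2, which binds YAP and junction proteins, changed by 1.72 (adjusted p = 0.00112). The other 6 that rose, like the Par genes that did not pass, were named after their values were seen. They include the Crumbs complex genes Patj (1.09), Mpp5, the array's symbol for Pals1 (0.85), and Crb3 (0.76). Also among them are the receptor Cxadr (0.72), the Par complex kinase Prkcz (0.70) and the cingulin relative Cgnl1 (0.43). The count of 10 became 6 without transgenic mouse 3 and 5 without control mouse 1, 2 or 3. Of these 6 only Patj was called when control mouse 1 was left out.

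In the adherens junction list Afdn, afadin, which links nectins to actin, rose by 0.96 (limma's adjusted p = 0.0053), Plekha7 by 0.85 (0.00399) and Ctnna1, alpha-catenin, by 0.58 (0.00579). Nectin1, an adhesion molecule of the same junction, had signals of 7.79, 7.87 and 7.73 in transgenic crypts and 8.65, 8.59 and 8.35 in control crypts, and fell by 0.73 (SE 0.10, adjusted p = 0.00706). Nectin2 (0.77), p120-catenin Ctnnd1 (0.65) and vinculin Vcl (0.57), named after their values were seen, rose, and Ctnnb1, beta-catenin, differed by 0.21 (adjusted p = 0.133). Against 7.5% higher and 6.7% lower over all genes, 6 of 8 desmosome and keratin partners rose and none fell (median 1.01). They included the plakin Ppl, periplakin (1.89, adjusted p = 0.00191), and the keratins Krt7 (2.86, adjusted p = 0.000482), Krt18 (1.53, adjusted p = 0.000596) and Krt20 (1.09, adjusted p = 0.00335). Perp (0.92), a desmosome protein, and Krt8 (0.28) were named after their values were seen. Vcl was not called without transgenic mouse 3 (0.102) or control mouse 1, 2 or 3 (0.104, 0.0925 and 0.117), nor Krt8 without transgenic mouse 1 or 3 (0.0755 and 0.0663) or control mouse 1, 2 or 3 (0.106, 0.135 and 0.126).

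The list labelled brush border cadherins holds 5 genes with Cdhr symbols, of which Cdhr2 and Cdhr5 are known to link microvilli. Of the 5, Cdhr2 rose by 0.61 (limma's adjusted p = 0.0487) and none fell, against 7.5% and 6.7% of all genes. Leaving out any mouse but transgenic mouse 2 ended the call of Cdhr2 (adjusted p of 0.126 to 0.165). Of 6 repressors of junction genes, Zeb1 rose by 0.77 (0.0118) and Zeb2 by 0.31 (0.0367), and none fell; Snai1, Snai2, Twist1 and Twist2 differed by -0.22 to 0.09. Zeb1 was not called without control mouse 1, 2 or 3 (0.0549, 0.0593 and 0.0533), and Zeb2 was called neither without transgenic mouse 1 or 3 nor without any 1 control mouse (0.0859 to 0.141). Zeb2 was dim, at 5.49 to 5.57 in transgenic and 5.14 to 5.27 in control crypts, near the array control level of 5.07. Quantile normalization also ended its call (limma's adjusted p = 0.0627). Of 5 transcription factors of gut epithelium Cdx1 fell by 0.97 (adjusted p = 0.00848, and 0.0512 without control mouse 3) and none rose. Among 7 pannexins and other connexins limma called 0, and 1 had an unadjusted p below 0.05, Panx1 (-0.34, adjusted p = 0.0700).

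**Figure D4:**
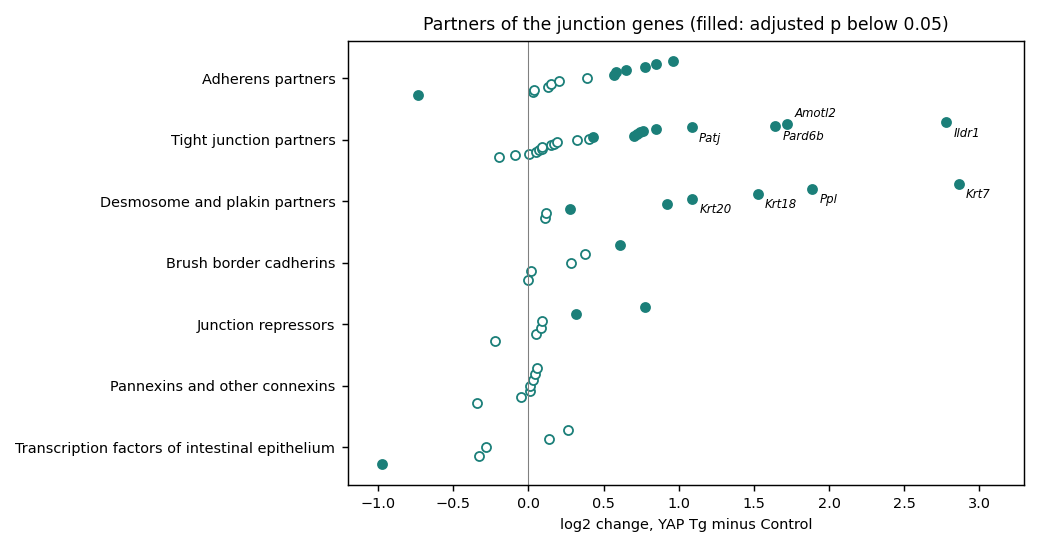
Log2 change (YAP Tg minus Control, horizontal axis) of genes in 7 lists related to the junctions, 1 point per gene, filled where limma's adjusted p was below 0.05, with the larger called changes named. Called genes lie to the right of 0 except Nectin1 and Cdx1.

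Markers of cell types were measured on the same arrays, as the log2 of the signal summed over each list. Counts of markers that rose or fell stand against 7.5% and 6.7% of all genes. Fewer cells of a type and less RNA per cell cannot be told apart in these bulk samples. Epithelial markers summed to 15.39 to 15.45 in transgenic crypts and 15.01 to 15.13 in control crypts, and 3 of 7 rose, Krt8, Krt18 and the member Cdh1, a count that became 1 without transgenic mouse 3 or any 1 control mouse. The epithelial adhesion molecule Epcam had 11.96, 11.68 and 11.89 in transgenic crypts and 11.64, 11.73 and 11.63 in control crypts (limma's adjusted p = 0.250). T cell markers summed to 12.99 to 13.04 in transgenic crypts and 11.46 to 11.76 in control crypts, and 6 of 7 rose. Markers of Lgr5 stem cells summed to 9.82 to 11.16 in transgenic crypts and 13.23 to 13.32 in control crypts, and 5 of 5 fell (3, 3 and 2 without control mouse 1, 2 or 3). Enterocyte markers summed to 15.37 to 15.70 in transgenic crypts and 15.87 to 15.92 in control crypts, and 2 of 7 fell, Fabp1 and Fabp2. All transgenic mice lay below all controls for 4 of the 7 and above them for 2, Apoa1 (0.22) and Alpi (0.27), which did not pass the test. Goblet cell markers summed to 13.91 to 14.42 in transgenic and 14.54 to 14.63 in control crypts (2 of 5 fell), and Paneth cell markers to 13.49 to 13.88 in transgenic and 13.86 to 14.23 in control crypts (2 of 4 fell). The summed macrophage signal overlapped, at 9.71 to 9.94 in transgenic and 9.69 to 10.21 in control crypts. That sum follows mainly Lyz2, the brightest of the 4 markers, which differed by -0.37 (limma's adjusted p = 0.233). Of the 4, Csf1r (0.85) and Cd68 (0.61) rose without overlap between groups, and Adgre1 differed by 0.41 (limma's adjusted p = 0.207). Leaving out 1 array changed several of these counts. Paneth cell markers that fell numbered 1 without transgenic mouse 1 or 3 or any 1 control mouse, and macrophage markers that rose numbered 1 without transgenic mouse 1 or any 1 control mouse. Enterocyte markers that fell numbered 4 without transgenic mouse 3 and 1 without control mouse 3, and goblet cell markers that fell numbered 1 without control mouse 3.

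Markers of endothelium summed to 8.67 to 8.81 in transgenic and 8.48 to 8.64 in control crypts, and those of fibroblasts to 9.10 to 9.68 in transgenic and 8.89 to 9.81 in control crypts. Smooth muscle markers summed to 8.23 to 8.44 in transgenic and 8.21 to 8.32 in control crypts, and those of enteric neurons and glia to 7.80 to 7.98 in transgenic and 7.62 to 7.83 in control crypts. Limma called 0 of the 7, 6, 5 and 3 genes of these lists, and 1, 0, 0 and 2 had an unadjusted p below 0.05. The endothelial marker Emcn, the fibroblast marker Lum and the macrophage marker Adgre1 had means below the array control level. The part of any of these cell types in the differences of the junction genes was not tested.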

How the data were processed

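Per the submitters' processing notes, the authors made the values with Affymetrix Expression Console version 1.1 and deposited them as log2 signals for 35556 probe sets on 6 arrays. The log2 scale was read from the values (1.99 to 14.4), and no source used here states the background correction or normalization. A normalization that evens out array levels hides any change common to all genes. Probe sets numbered below the first annotated one (6617) served as array controls on the basis of numbering only.

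Genes were named from probe sets with exactly 1 symbol in the platform annotation, and a gene with several was represented by its brightest on average (19938 genes). All 82 members matched RefSeq by Entrez identifier, with 0 symbols changed, and 3 had several probe sets. RNA was from uncultured crypts released with EDTA, per the labels' protocols. No build is stated for the array, and RefSeq served for names, gene order and promoter sequence.

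Groups of 3 arrays were compared in 1 fit over all genes by a two-sided moderated test without covariates (limma 3.58.1, functions lmFit and eBayes, R 4.3.3), with Benjamini-Hochberg adjustment over all genes and a threshold of 0.05. Intervals are 95% intervals of that fit. The script was tested on simulated data. Titles number 3 mice per group, taken as separate mice, and 3 arrays per group limit precision. Genes described by array are the 15 past the test, 22 junction genes known in gut epithelium, and the 2 others per class with the smallest p. Cldn23 and others given as neighbours or by range were named after their values were seen. From each partner list the 4 called genes with the smallest p were named. The members and lists were chosen with earlier results of these data known. Alternatives left out each array, blocked on replicate number, changed normalization, centring, filters, prior, array weights, probe set rule and threshold.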

Additional observations from a re-analysis of the deposited data

How the results depend on the processing

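Among the 82 junction genes, 13 rose and 2 fell with all arrays. Leaving out 1 array gave 5 to 17 higher and 1 to 3 lower. By class these ranges were 3 to 10 higher and 0 to 1 lower for tight junction genes, 0 to 2 higher for cadherins, 2 to 5 higher for desmosome genes and 0 to 1 lower for gap junction genes. Over the whole array they were 669 to 2802 higher and 369 to 3889 lower. The replicate numbers showed no sign of pairing: the deviations of same-numbered mice correlated at -0.13, 0.01 and 0.10 for numbers 1, 2 and 3. Those of differently numbered mice correlated at -0.13 to 0.12. With 3 mice per group these values cannot exclude pairing. With the replicate block 7 junction genes were higher and 1 lower, with 0 tight junction genes lower, 0 cadherins and 3 desmosome genes higher, and 975 genes higher and 727 lower over the whole array. With array weights 21 junction genes were higher and 4 lower, namely 11 tight junction genes higher and 2 lower, 2 gap junction genes higher and 1 lower, and 2459 genes higher and 3481 lower over the whole array. At an adjusted p below 0.01 there were 4 higher and 1 lower, with 3 tight junction genes, 0 cadherins and 1 desmosome gene higher and 0 tight junction genes lower, against 661 higher and 386 lower over the whole array. Requiring a 2-fold change left 3 higher, all 3 of the tight junction, with 0 cadherins and 0 desmosome genes higher, against 519 higher and 468 lower over the whole array. Quantile normalization, median centring, both filters on dim genes, the trended and robust prior and the mean of probe sets kept the counts of junction genes within 1.5 times. Of the 15 calls, 5 held in all 14 alternatives that refitted the data, Pkp1, Tjp1, Cgn, Dsg2 and F11r, and 10 were lost in at least 1. The log2 change of Cldn3, close to 0, changed sign without transgenic mouse 2 (0.0437), without control mouse 1 (0.0123), under quantile normalization (0.0457) and with array weights (0.0312), and was -0.0455 to 0.0437 with 1 array left out. The cause of these shifts was not tested. Signal close to that of the array control probe sets limits what can be said of the 24 dimmest junction genes.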
